A study of Mus musculus with 6 samples.

Results

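Transcripts of the calcium store of the muscle fibre were examined in quadriceps of control and miDrp1KO mice: the sarcoplasmic reticulum pumps *Atp2a1* and *Atp2a2*, their small inhibitors *Sln* and *Pln*, the calcium buffers *Casq1*, *Casq2*, *Pvalb* and *Srl*, and the store-operated entry pair *Stim1* and *Orai1*. These 10 genes were taken by symbol from the 27179 genes in the count files, and each passed the filter on low counts that left 16483 genes for testing. RNA-seq was performed on whole quadriceps muscle from 3 control mice (libraries B, C and D) and 3 miDrp1KO mice (libraries A, E and F). miDrp1KO mice carried floxed *Dnm1l*, the gene encoding the mitochondrial fission GTPase Drp1, and a tamoxifen-inducible MerCreMer recombinase driven by the human *ACTA1* promoter, which acts in skeletal muscle fibres. Controls, labelled Control f/f, were floxed mice. By the study's methods, both groups had a C57BL/6J-backcrossed background, received tamoxifen at 3 months of age and were studied after fasting for 6 hours, and the muscle was taken 3 weeks post-deletion. The labels give a normal chow diet for each library. Tamoxifen, the floxed locus, diet and fast were thus shared by the groups, and no Cre-positive mice without floxed *Dnm1l* were among the 6 libraries. Whole muscle also holds vessels, nerve, connective tissue and fat, and in such bulk samples fewer cells of a type and less RNA per cell cannot be told apart.

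When a fibre is excited, calcium leaves the sarcoplasmic reticulum through the ryanodine receptor and is pumped back by the SERCA ATPases. Fast fibres use SERCA1, encoded by *Atp2a1*, with calsequestrin 1 (*Casq1*) as the store buffer and parvalbumin (*Pvalb*) as a cytosolic buffer that speeds relaxation. Slow fibres and heart use SERCA2, encoded by *Atp2a2*, together with calsequestrin 2 (*Casq2*) and phospholamban (*Pln*). Sarcolipin (*Sln*) and phospholamban are short membrane proteins that bind SERCA and lower its activity, sarcalumenin (*Srl*) is a glycoprotein of the store lumen that binds calcium, and STIM1 senses an emptied store and opens the plasma membrane channel ORAI1. Because most of these genes differ between fast and slow fibres, each was set against the fibre type markers of the same library.

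The 2 inhibitors are encoded by very short reading frames, shown here because both inhibitors are set against the pumps in the ratios. On GRCm38, the *Sln* reading frame lies at chr9:53853473-53853568 on the plus strand and holds 31 codons before the stop. The *Pln* reading frame lies at chr10:53343864-53344022 on the plus strand and holds 52 codons. Capitals mark the start and stop codons.
Sln: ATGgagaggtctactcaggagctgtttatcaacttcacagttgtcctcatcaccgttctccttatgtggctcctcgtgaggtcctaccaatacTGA
Pln: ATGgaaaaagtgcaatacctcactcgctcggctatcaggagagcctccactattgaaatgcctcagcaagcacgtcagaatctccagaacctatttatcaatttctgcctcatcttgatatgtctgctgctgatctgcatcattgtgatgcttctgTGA

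The promoters of the fast pump and of the 2 calsequestrins are given next, since *Atp2a1* and *Casq1* had like patterns over the libraries and *Casq2* did not. The sequences are the 250 bases before the RefSeq start site on GRCm38.p6, at chr7:126463074-126463323 (minus strand) for *Atp2a1*, chr1:172219896-172220145 (minus strand) for *Casq1* and chr3:102086165-102086414 (plus strand) for *Casq2*. The *Atp2a1* window overlaps the gene coordinates given below, which end at 126463103, so its start site lies inside them. The *Casq1* and *Casq2* windows adjoin the coordinates of their genes. Capitals mark the E-box CANNTG, bound by myogenic bHLH factors, and the MEF2 box, both searched on both strands with no overlap between them.
Atp2a1: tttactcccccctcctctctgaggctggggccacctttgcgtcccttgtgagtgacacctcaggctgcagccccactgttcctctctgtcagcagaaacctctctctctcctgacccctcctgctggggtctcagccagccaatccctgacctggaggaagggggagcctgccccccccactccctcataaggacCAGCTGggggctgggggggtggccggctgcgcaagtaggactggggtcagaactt
Casq1: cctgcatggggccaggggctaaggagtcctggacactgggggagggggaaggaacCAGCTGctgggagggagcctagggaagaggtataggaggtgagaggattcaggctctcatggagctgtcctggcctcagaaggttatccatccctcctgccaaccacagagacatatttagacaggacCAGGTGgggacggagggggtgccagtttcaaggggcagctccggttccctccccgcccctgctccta
Casq2: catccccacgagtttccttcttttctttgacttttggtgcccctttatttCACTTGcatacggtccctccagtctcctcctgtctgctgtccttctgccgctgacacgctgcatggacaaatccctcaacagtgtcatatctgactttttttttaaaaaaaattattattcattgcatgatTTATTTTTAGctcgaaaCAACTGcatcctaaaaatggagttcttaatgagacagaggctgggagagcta

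The *Atp2a1* promoter held 1 E-box, starting 55 bases before the start site, and the *Casq1* promoter held 2, at 195 and 67 bases. The *Casq2* promoter held E-boxes at 200 and 52 bases and a MEF2 box at 69 bases before the start. Promoters were matched for 7 of the 10 genes, with 2 for *Pvalb*, and 7 of these 8 promoters had an E-box, a motif found in 66.2% of all 32851 promoters of this length. The promoter without one was the first of *Pvalb*. A MEF2 box was found in the *Casq2* promoter and in that *Pvalb* promoter, against 2.92% of all promoters. The matches describe letters in these windows only.

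The libraries were first compared as a whole. Totals ran from 13989588 to 62042255 counts, ribosomal RNA genes took 1.48 to 24.4% of them, and Spearman correlations between libraries ran from 0.960 to 0.985. Levels are given as CPM, counts scaled to a common library size after TMM normalization. *Dnm1l* was at 156, 114 and 140 CPM in B, C and D and at 70.6, 81.3 and 66.2 CPM in A, E and F, so each miDrp1KO library lay below each control. Its log2 fold change was -0.91 ± 0.18 (SE), with an unadjusted p of 0.000389 and an adjusted p of 0.362 by the quasi-likelihood test of edgeR, where adjusted means by Benjamini and Hochberg over the tested genes. Skeletal muscle markers were present in every library, and their sum ran from 199456 to 254305 CPM in controls and from 100947 to 199520 CPM in miDrp1KO mice. The largest part of each sum was *Ttn*, with 113588 bases of exon, at 141256, 87773 and 138925 CPM in B, C and D. In A, E and F *Ttn* was at 104112, 66485 and 26349 CPM. Of the 10 skeletal muscle markers 9 had negative estimates, with a median log2 fold change of -0.55. At an unadjusted p under 0.05 (edgeR) 1 was lower, against 6.22% of tested genes, and 2 lay fully below the controls, against 10.3%. Of 8 heart markers, *Nppa*, *Nppb* and *Myl7* did not pass the filter on low counts, and the other 5 had positive estimates with a median of 0.89. Their sum was low, at 8.09 to 34.8 CPM in controls and 9.09 to 52.2 CPM in miDrp1KO mice. Of these 5, *Ryr2* (0.90, unadjusted p = 0.0293) and *Kcnj3* (1.64, unadjusted p = 0.0215, at under 1 CPM in every library) had the lowest p in edgeR. These 2 of the 5 were higher at an unadjusted p under 0.05, against 4.68% of tested genes. The part of the heart markers in the results for the calcium genes was not tested.

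Across the genome, the edgeR test called 2 of 16483 genes between the genotypes at an adjusted p under 0.05 (0.0121%), and 0 of the 10 calcium genes were called. At an unadjusted p under 0.05, 4 of the 10 were lower in miDrp1KO mice, against 6.22% of tested genes, and 0 were higher, against 4.68%. In 4 of the 10, every miDrp1KO library lay below every control library, which held for 10.3% of tested genes, and in 0 of the 10 every miDrp1KO library lay above the controls, against 7.67%. The median log2 fold change of the 10 was -0.16, against 0.02 over the tested genes. DESeq2, the tool used by the study, called 82 of the 6962 genes to which it gave an adjusted p (1.18%), with none of the 10 among them, although *Sln* was given no adjusted p and could not be called.

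**Figure D1:**
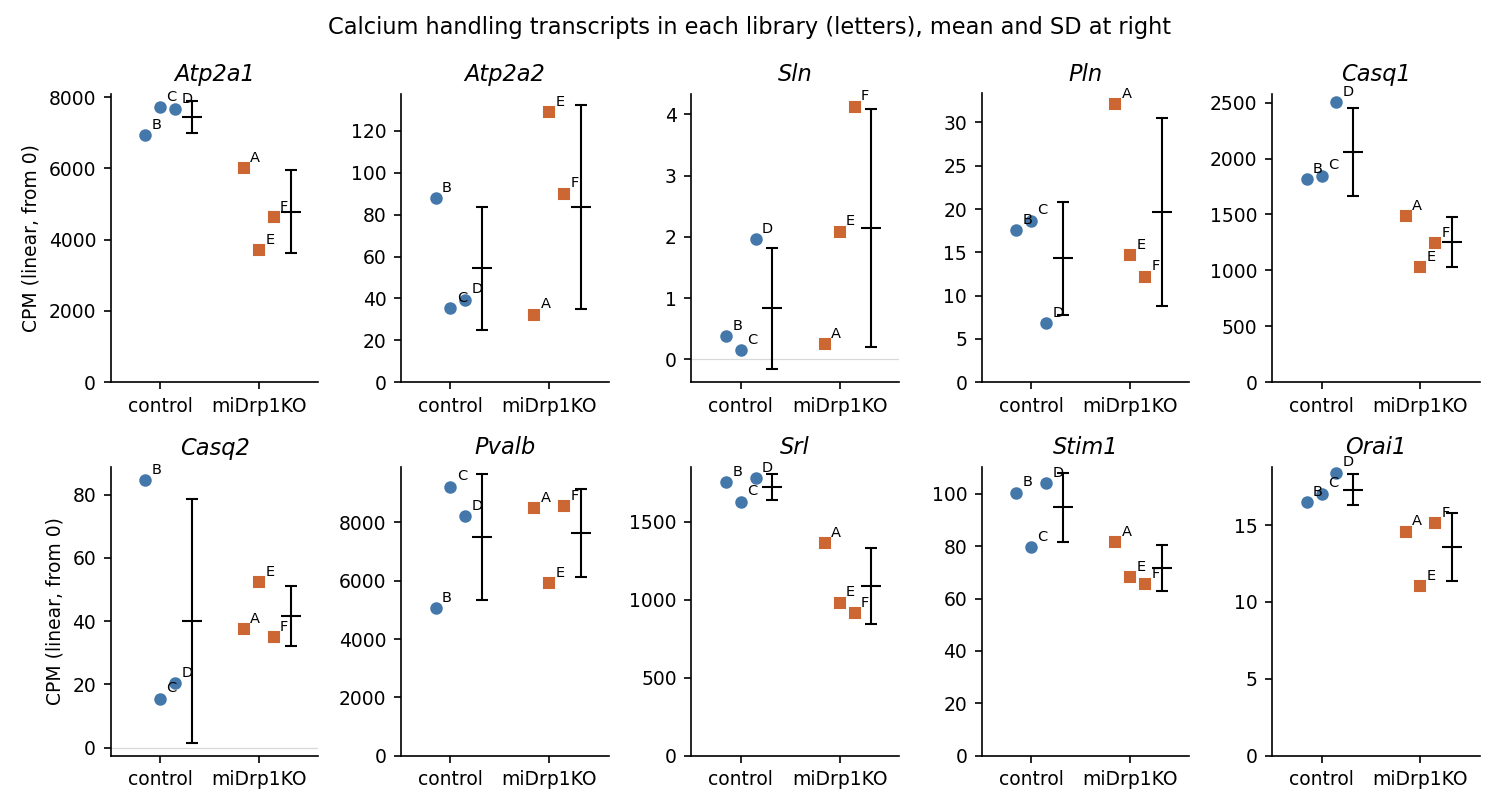
CPM (linear axis) of each of the 10 genes in the 3 control (circles) and 3 miDrp1KO (squares) libraries, lettered, with the mean and SD of each group at the right of its points. *Atp2a1*, *Casq1*, *Srl* and *Orai1* show no overlap between the groups, whereas the groups overlap for the other 6 genes.

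Per kilobase of exon, parvalbumin was the most abundant of the 10, with a mean over the 6 libraries of 7276 CPM per kb. It was followed by *Atp2a1* at 1758, *Casq1* at 896 and *Srl* at 280 CPM per kb, and each of these exceeded the next gene in 6 of 6 libraries. The remaining genes formed a low group. *Stim1* averaged 18.7, *Casq2* 15.9, *Atp2a2* 13.1 and *Orai1* 8.24 CPM per kb. *Stim1* exceeded *Casq2* in 4 of 6 libraries, *Casq2* exceeded *Atp2a2* in 3 of 6 and *Atp2a2* exceeded *Orai1* in 3 of 6, so that these neighbours could not be ordered. *Orai1* exceeded *Pln* (6.16 CPM per kb) in 5 of 6 libraries, and *Sln* was lowest at 1.13 CPM per kb, below *Pln* in 6 of 6. Quadriceps thus held the fast forms *Atp2a1* and *Casq1* at high level and their slow counterparts *Atp2a2* and *Casq2* at low level in both genotypes.

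The SERCA pumps differed from each other in how they varied. *Atp2a1* (Entrez 11937, chr7:126445858-126463103, minus strand) stood at 6927, 7727 and 7673 CPM in B, C and D and at 6012, 3699 and 4643 CPM in A, E and F. Each miDrp1KO library was below each control, with E and F furthest down and A closest to the controls. The log2 fold change was -0.64 ± 0.29 (SE), which is 0.643 of the control level, with an unadjusted p of 0.0494 and an adjusted p of 0.458 (edgeR). *Atp2a2* (Entrez 11938, chr5:122453513-122502225, minus strand) was at 88.1, 35.4 and 39.5 CPM in B, C and D and at 32.3, 129 and 90.0 CPM in A, E and F. Library B of the controls and E and F of the miDrp1KO group were high, C, D and A were low, and the groups overlapped. The genotype estimate for *Atp2a2* was 0.63 ± 0.63 (SE), with a 95% interval from -0.98 to 2.24 and an adjusted p of 0.765.

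Both inhibitors were scarce. *Sln* (Entrez 66402, chr9:53850251-53853849) had 8, 2 and 118 counts in B, C and D and 5, 85 and 86 counts in A, E and F, equal to 0.379, 0.146, 1.97, 0.243, 2.08 and 4.13 CPM in the same order. With single-digit counts in 3 libraries, the fold change of *Sln* was poorly determined, at 1.16 ± 1.14 (SE) on the log2 scale with an adjusted p of 0.758. *Pln* (Entrez 18821, chr10:53337686-53345999) was at 17.5, 18.7 and 6.81 CPM in B, C and D and at 32.1, 14.7 and 12.2 CPM in A, E and F. Control D was lowest and miDrp1KO A highest, the groups overlapped, and the estimate was 0.47 ± 0.55 (SE) with an adjusted p of 0.797. The highest *Pln* level therefore came from library A, which had the lowest *Atp2a2* level.

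Among the store buffers, the fast form and sarcalumenin were lower in miDrp1KO mice, but neither passed the adjusted threshold. *Casq1* (Entrez 12372, chr1:172209894-172219895, minus strand), the main calcium-binding protein of the fast store, was at 1815, 1848 and 2508 CPM in B, C and D and at 1484, 1031 and 1242 CPM in A, E and F. *Srl* (Entrez 106393, chr16:4476979-4541908, minus strand) was at 1755, 1630 and 1783 CPM in B, C and D and at 1365, 983 and 914 CPM in A, E and F. For both genes the miDrp1KO libraries lay below the controls without overlap, and A was again the highest of the 3. The log2 fold changes were -0.72 ± 0.25 (SE) for *Casq1* and -0.66 ± 0.24 (SE) for *Srl*, with unadjusted p of 0.0161 and 0.0179 and an adjusted p of 0.392 for each (edgeR).

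*Casq2* (Entrez 12373, chr3:102086415-102146514), the slow and cardiac calsequestrin, was at 84.6, 15.5 and 20.4 CPM in B, C and D. In A, E and F it was at 37.5, 52.4 and 34.9 CPM, inside the range of the controls. The genotype estimate was 0.05 ± 0.74 (SE), with a 95% interval from -1.88 to 1.99 that leaves a large change in either direction undetermined. Without control B the estimate was 1.23, with an unadjusted p of 0.000214 and an adjusted p of 0.378 (edgeR), the only case in which one of the 10 was higher at an unadjusted p under 0.05 among the main test and its 16 alternatives. *Pvalb* (Entrez 19293, chr15:78191112-78206400, minus strand) was at 5068, 9227 and 8208 CPM in B, C and D and at 8489, 5911 and 8545 CPM in A, E and F. Libraries B and E were low and the other 4 high, irrespective of genotype. The estimate for *Pvalb* was 0.03 ± 0.32 (SE), with a 95% interval from -0.69 to 0.74 and an adjusted p of 0.985.

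The store-entry pair showed small differences of the same sign. *Stim1* (Entrez 20866, chr7:102261514-102437319) was at 101, 79.7 and 104 CPM in B, C and D and at 81.7, 68.1 and 65.4 CPM in A, E and F. Only miDrp1KO A and control C overlapped. *Orai1* (Entrez 109305, chr5:123015074-123030452) was at 16.5, 17.1 and 18.4 CPM in B, C and D and at 14.6, 11.0 and 15.1 CPM in A, E and F, without overlap. The log2 fold changes were -0.40 ± 0.18 (SE) for *Stim1* and -0.35 ± 0.17 (SE) for *Orai1*, with unadjusted p of 0.0433 and 0.0640 and adjusted p of 0.446 and 0.486 (edgeR). For the 5 genes with a negative estimate, the sign was kept in 16 of 16 other settings each, and none passed the threshold, the lowest adjusted p being 0.0601 for *Casq1* with DESeq2. The count of 4 at an unadjusted p under 0.05 became 0 when control D or miDrp1KO E was left out, and 2 when control B was left out. F differed from the other libraries by gene length, with a median log2 difference from the control mean of -0.18 for genes with at least 5079 bases of exon and 0.23 for genes with at most 2145. After correction for length and GC content, *Casq1*, *Srl*, *Stim1* and *Orai1* were lower at an unadjusted p under 0.05 in edgeR, and *Atp2a1* had an unadjusted p of 0.0502.

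**Figure D2:**
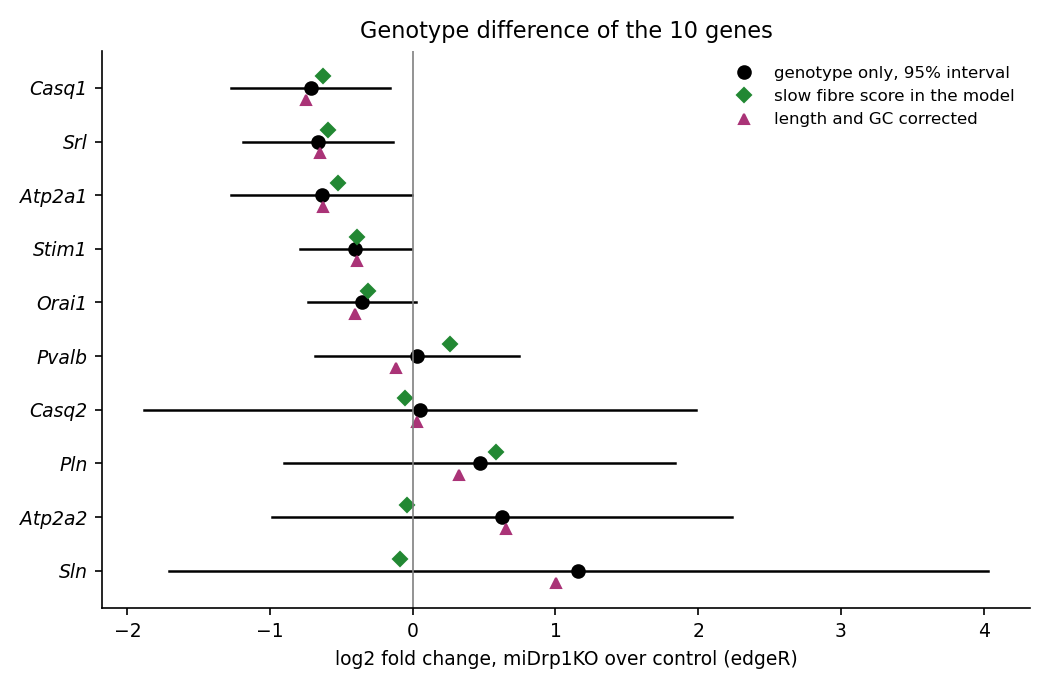
Log2 fold change of miDrp1KO over control for each of the 10 genes, with its 95% interval (black), and the estimates with the slow fibre score in the model (diamonds) and after correction for length and GC content (triangles). The 5 genes at the top keep a negative estimate in each of these fits, whereas *Atp2a2*, *Sln* and *Casq2* have wide intervals and estimates near 0 once the score is in the model.

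The muscles were next set against fibre type, measured by 12 slow fibre genes, none of them among the 10. *Myh7*, the slow myosin heavy chain, was at 95.7, 2.48 and 13.4 CPM in B, C and D and at 3.89, 174 and 89.6 CPM in A, E and F. The slow troponin *Tnnt1* was at 58.0, 3.79 and 11.4 CPM in B, C and D and at 3.55, 98.6 and 101 CPM in A, E and F. *Tnni1*, *Tnnc1*, *Myl2* and *Myl3*, further slow thin-filament and light-chain genes, likewise had values in B, E and F above those in C, D and A. The slow fibre score, the mean log2 CPM of the list centred over libraries, was 1.19, -2.13 and -0.85 in B, C and D and -1.47, 1.64 and 1.62 in A, E and F. B therefore had the highest slow fibre score among the controls and A the lowest among the miDrp1KO mice. The score ranks the slow fibre genes only, and B still held *Myh4*, a fast myosin, at 49885 CPM. Of the 12 slow genes, 11 had a positive genotype estimate, with a median log2 fold change of 1.12 and overlapping groups for each of the 12. None of the 12 was called between genotypes by edgeR, DESeq2 or limma voom, nor did any pass an unadjusted p of 0.05 in edgeR.

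Fast fibre genes had genotype estimates of the opposite sign. *Myh4*, the fast IIB myosin, was at 49885, 58256 and 62914 CPM in B, C and D and at 40363, 17190 and 12241 CPM in A, E and F, a log2 fold change of -1.29 ± 0.47 (SE) with an unadjusted p of 0.0184 and an adjusted p of 0.392 (edgeR). Of the 12 fast fibre genes, 12 had a negative estimate, with a median log2 fold change of -0.54. At an unadjusted p under 0.05 in edgeR, 3 of the 12 were lower, against 6.22% of tested genes. Fully below the controls lay 4 of the 12, against 10.3% of tested genes. In edgeR 0 of the 12 were called, whereas DESeq2 called *Myh4*. The IIA and IIX myosins *Myh2* and *Myh1* had estimates of -0.74 ± 0.39 and -0.81 ± 0.66 (SE) with overlapping groups, and fast troponin *Tnnt3* had -0.55 ± 0.36. *Atp2a1*, *Casq1* and *Srl* thus had estimates near the median of this list, and near that of the 10 general skeletal muscle markers (-0.55), whose estimates ran from -0.95 to 0.67 and of which 3 are also in the fast fibre list.

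To place the 10 genes on the same scale, the log2 CPM of each was taken relative to the mean log2 CPM of the 12 fast fibre genes in its own library, a description added after the values were seen. The fast fibre mean was 0.25, 0.27 and 0.33 in B, C and D and 0.06, -0.56 and -0.36 in A, E and F after centring. Relative to it, *Atp2a1* was at 0.08, 0.21 and 0.14 in B, C and D and at 0.06, -0.02 and 0.11 in A, E and F. The groups then overlapped for *Atp2a1*, *Casq1*, *Srl* and *Orai1*, which had not overlapped before. For *Pln* and *Pvalb*, which had overlapped before, each miDrp1KO library lay above each control. The share of all tested genes that overlapped or separated on this scale was not computed. These changes are therefore not read as a result about the 10 genes. The mean difference of miDrp1KO from control was -0.10 for *Atp2a1*, -0.15 for *Casq1* and -0.12 for *Srl*. The SD of this relative level was 0.07 for *Atp2a1*, 0.22 for *Casq1* and 0.07 for *Srl* among the controls. The fast fibre mean itself differed by -0.57 between the groups. By construction this scale therefore moves each gene's difference in mean log2 CPM up by that amount, *Pln* and *Pvalb* included. The edgeR estimates above are not differences in mean log2 CPM, so they need not differ from these values by that amount. On the relative scale the differences were 0.17 for *Stim1*, 0.20 for *Orai1*, 0.62 for *Pvalb*, 1.02 for *Pln*, 1.02 for *Casq2*, 1.10 for *Atp2a2* and 1.99 for *Sln*. The value of *Sln* rests on single-digit counts in B, C and A, with no prior count added.

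**Figure D3:**
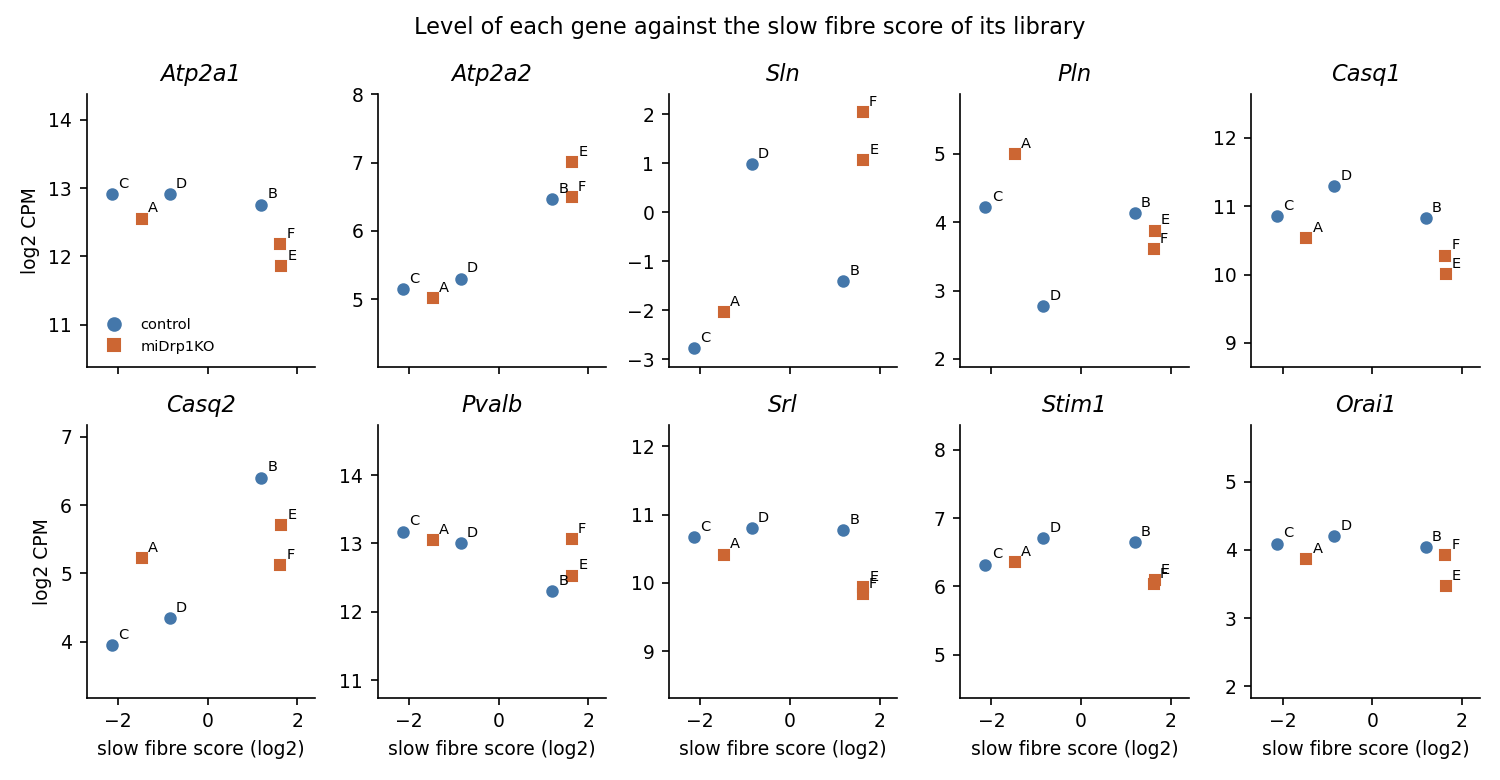
Log2 CPM of each of the 10 genes against the slow fibre score of its library (log2 units), with control libraries as circles and miDrp1KO libraries as squares, each panel spanning at least 4 log2 units. *Atp2a2* is high in B, E and F, whose scores lie above 1, and low in C, A and D, whose scores lie below 0, in both genotypes.

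A model with genotype and slow fibre score was then fitted over the tested genes. The slope on the score was called for 200 of 16483 genes at an adjusted p under 0.05 (1.21%), and for 1 of the 10, *Atp2a2*. The slow pump gained 0.49 ± 0.07 (SE) log2 units per unit of score, with an adjusted p of 0.0117. At an unadjusted p under 0.05, 1 of the 10 had a positive slope, against 7.37% of tested genes, and 0 had a negative slope, against 6.25%. *Casq2* had a slope of 0.39 ± 0.18 (SE) with an adjusted p of 0.457, *Sln* one of 0.63 ± 0.52, *Pvalb* one of -0.16 ± 0.10 and *Pln* one of -0.19 ± 0.17. For *Atp2a1*, *Casq1*, *Srl*, *Stim1* and *Orai1* the slopes ran from -0.11 to -0.01. The slope of *Atp2a2* was 0.41 with an adjusted p of 0.160 when miDrp1KO A was left out, so its call rested on that library. Without control B the slopes of *Sln* (1.36, adjusted p 0.00790) and *Pln* (-0.48, adjusted p 0.0143) were called as well. The slope of *Sln* was also called without control D (0.98, adjusted p 0.0187), and that of *Casq2* without miDrp1KO A (0.76, adjusted p 0.0133). Over all genes, slopes were called for 404 of 17655 without B, 531 of 17750 without D and 48 of 17845 without A.

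With the score in the model, the genotype estimate of *Atp2a2* was -0.04 ± 0.21 (SE), in place of 0.63 ± 0.63, so that the difference between its group means and most of its spread went with the score. The estimates of *Casq1*, *Srl* and *Stim1* were -0.63 ± 0.24, -0.59 ± 0.22 and -0.39 ± 0.18 (SE), and these 3 of the 10 were lower at an unadjusted p under 0.05, against 5.96% of tested genes. *Atp2a1* was at -0.52 ± 0.26 (SE) with an unadjusted p of 0.0679. No adjusted p of the 10 was below 0.411 in this model (edgeR).

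Ratios within a library, which do not depend on scaling, were compared by two-sided exact permutation tests over the 3 against 3 libraries, whose smallest possible p is 0.1. The log2 ratio of *Atp2a1* to *Atp2a2* was 6.30, 7.77 and 7.60 in B, C and D and 7.54, 4.84 and 5.69 in A, E and F. The difference of miDrp1KO from control was -1.20 (exact p = 0.2, adjusted p = 0.4 over 4 ratios), and A lay with C and D. For *Casq1* to *Casq2* the ratio was 4.42, 6.89 and 6.94 in B, C and D and 5.31, 4.30 and 5.15 in A, E and F, with a difference of -1.17 (exact p = 0.3, adjusted p = 0.4). C and D stood apart from the other 4 libraries.

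For *Stim1* to *Orai1*, the store sensor against its channel, the log2 ratio was 2.61, 2.22 and 2.50 in B, C and D and 2.48, 2.63 and 2.11 in A, E and F, a difference of -0.04 (exact p = 0.9) with SDs of 0.20 and 0.27. The summed inhibitors *Sln* and *Pln* relative to the summed pumps gave log2 ratios of -8.61, -8.69 and -9.78 in B, C and D and of -7.55, -7.83 and -8.18 in A, E and F. Here each miDrp1KO library lay above each control, with a difference of 1.17 and the smallest exact p the design allows (0.1, adjusted p = 0.4). In each library *Pln* gave most of the numerator and *Atp2a1* nearly the whole denominator, so this ratio mostly set *Pln* against *Atp2a1*.

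**Figure D4:**
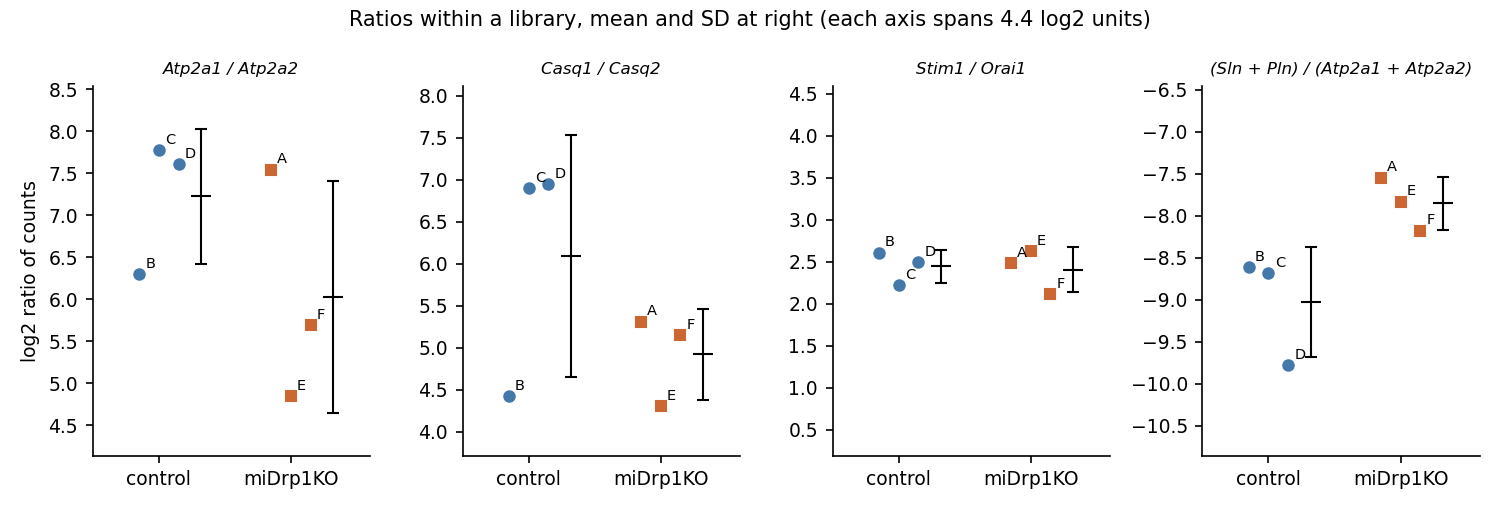
Log2 ratios of counts within each library for the 4 pairs, with control (circles) and miDrp1KO (squares) libraries lettered and the group mean and SD at the right; each axis spans the same number of log2 units. The groups overlap for the first 3 ratios and are separate for the inhibitors over the pumps, at -9.78 to -8.61 in controls and -8.18 to -7.55 in miDrp1KO mice.

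The remaining calcium machinery was read from 4 lists by role, covering 54 genes, 53 of them tested. None passed the adjusted threshold in edgeR. At an unadjusted p under 0.05, 10 were lower and 1 higher in miDrp1KO mice (6.22 and 4.68% of tested genes), and the median log2 fold change was -0.13. Of the 23 genes of the release machinery, 8 were lower, 1 was higher and 9 lay fully below the controls (10.3% of tested genes). *Ryr1*, the release channel itself, was at 2535, 2346 and 2216 CPM in B, C and D and at 1475, 967 and 414 CPM in A, E and F, a log2 fold change of -1.31 ± 0.39 (SE). *Cacna1s*, the voltage sensor that opens it, was at 1394, 1324 and 1195 CPM in B, C and D and at 957, 509 and 340 CPM in A, E and F, with -1.12 ± 0.34 (SE). Both were lowest in F, the library that differed by gene length, and both are long genes, with 15445 and 6411 bases of exon. After correction for length and GC content their estimates were -1.28 ± 0.37 and -1.11 ± 0.34 (SE), with adjusted p of 0.337 for each (edgeR). With DESeq2, *Ryr1*, *Cacna1s* and *Jph2* were called, at log2 fold changes of -1.33, -1.13 and -0.89 and adjusted p of 0.0126, 0.0288 and 0.0231.

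The junctophilins *Jph1* and *Jph2*, which hold the store against the transverse tubule, had log2 fold changes of -0.69 ± 0.26 and -0.88 ± 0.23 (SE). The channel subunit *Cacnb1*, the triad protein *Sypl2*, the luminal calcium-binding protein *Hrc* and the chaperone calreticulin (*Calr*) had estimates of -0.52, -0.74, -0.71 and -0.41. *S100a1*, a calcium sensor that binds the ryanodine receptor, was the gene with the higher level, at 145, 141 and 138 CPM in B, C and D and at 144, 197 and 241 CPM in A, E and F, with an estimate of 0.46 ± 0.21 (SE). A sat among the controls for *S100a1*, and E and F above them. *Trdn*, the anchor of calsequestrin and the most abundant gene of this list, had -0.19 ± 0.33 (SE) with overlapping groups.

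The other lists were read against the share of tested genes lower (6.22%) or higher (4.68%) at an unadjusted p under 0.05 (edgeR). No test compared the lists with each other. Of 8 tested SERCA regulators, 0 passed an unadjusted p of 0.05 in edgeR and 0 were called by DESeq2. Of 13 further store-entry genes 1 did, the sensor *Stim2*, at 53.4, 84.0 and 77.7 CPM in B, C and D and at 65.6, 35.9 and 43.8 CPM in A, E and F (-0.57 ± 0.25, SE), and the scaffold *Homer1* had -0.25 ± 0.20. Of 9 export genes 1 did, the plasma membrane pump *Atp2b3* (-0.68 ± 0.27, SE), whereas *Atp2b1*, the most abundant of them, had -0.50 ± 0.25. With the slow fibre score in the model, 9 of the 53 genes were lower at an unadjusted p under 0.05 (5.96% of tested genes) and 0 were higher. The slope on the score was positive for 5 and negative for 9 of the 53 at an unadjusted p under 0.05 (7.37 and 6.25% of tested genes). It was called for 1 of the 53 (1.21% of tested genes), the scaffold *Homer2*, which was singled out after its values were seen (0.35 ± 0.07 per unit of score, SE, adjusted p 0.0404).

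**Figure D5:**
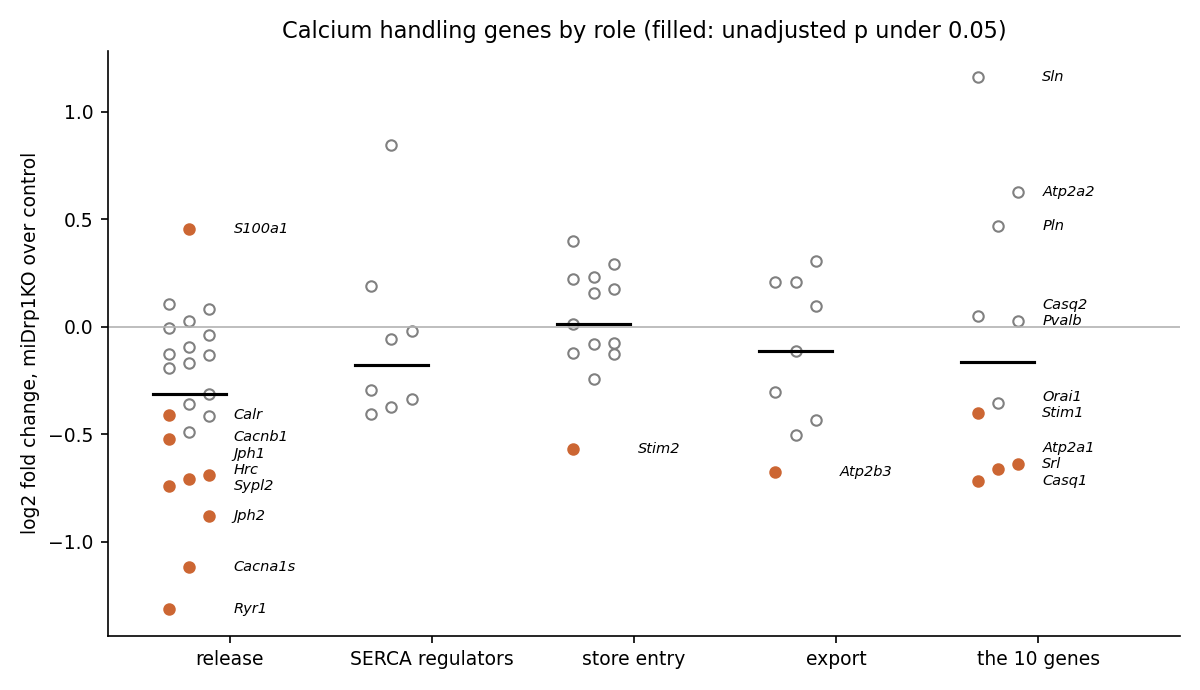
Log2 fold change of miDrp1KO over control for the tested genes of the 4 calcium lists and the 10 genes, 1 circle per gene, filled where the unadjusted edgeR p is under 0.05, with the median of each list as a bar. The release list has the lowest median (-0.31) and *Ryr1* the lowest estimate (-1.31).

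Markers of other tissues were read beside these results. The 7 fat cell markers had negative estimates in 7 of 7 cases, and their sum was 428 to 691 CPM in controls and 284 to 408 CPM in miDrp1KO mice, without overlap. Their median log2 fold change was -1.07. At an unadjusted p under 0.05, 3 of the 7 were lower (edgeR), against 6.22% of tested genes. Summed endothelial markers (182 to 330 against 191 to 291 CPM), macrophage markers (123 to 214 against 152 to 190 CPM) and Schwann cell markers (37.0 to 52.1 against 40.7 to 72.6 CPM) overlapped between the groups. Of the 7 macrophage markers, *C1qa* (0.64, unadjusted p = 0.00948) and *Cd68* (0.59, unadjusted p = 0.0566) lay above the controls in each miDrp1KO library (edgeR), as did 7.67% of tested genes, while 4 of the 7 had negative estimates and the median of the list was -0.01. Summed fibroblast markers were at 1353 to 1925 CPM in controls and 1551 to 2601 CPM in miDrp1KO mice, and 7 of the 7 had positive estimates with a median of 0.27, *Fn1* at an unadjusted p of 0.0455 (edgeR). Summed smooth muscle markers (2424 to 2724 against 1752 to 2664 CPM) overlapped, and 6 of 7 had negative estimates. Most of that sum was *Des*, also among the skeletal muscle markers, at 2411, 2640 and 2308 CPM in B, C and D. In A, E and F *Des* was at 2291, 1640 and 2578 CPM, so the smooth muscle sum mostly describes a muscle fibre gene. Summed red cell markers (47.2 to 271.7 against 73.2 to 230.5 CPM) and satellite cell markers (24.1 to 28.2 against 22.8 to 28.2 CPM) overlapped. Of the 5 satellite cell markers, *Cdh15* (-0.76, unadjusted p = 0.00191) lay below the controls in each miDrp1KO library and *Chodl* (0.53, unadjusted p = 0.0203) above them (edgeR). Of tested genes, 10.3% lay below and 7.67% above in this way, and 6.22% were lower and 4.68% higher at an unadjusted p under 0.05 (edgeR). Estimates were negative for 2 of the 5 satellite cell markers and positive for 3, with a median of 0.43. Slopes on the slow fibre score were also read at an unadjusted p under 0.05 (edgeR). They passed as positive slopes for 5 of 7 endothelial and 4 of 7 Schwann cell markers, and as negative slopes for 4 of 7 macrophage markers. Slopes also passed for 2 of 7 fat markers, which were negative. They passed as positive slopes for 2 of 4 red cell, 1 of 7 smooth muscle and 2 of 5 tested heart markers. No fibroblast or satellite cell marker passed. Of tested genes, 7.37% had such a positive slope and 6.25% a negative one. The slopes of *Lep* (-0.58), *Prx* (0.48), *Hba-a2* (0.80) and the heart marker *Myh6* (0.88) were called. The part of these markers in the results for the calcium genes was not tested.

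Finally, genes with the most similar pattern over the 6 libraries were listed for *Atp2a2*, *Casq2*, *Pln*, *Sln* and *Pvalb*, among 7197 genes with a mean of at least 10 CPM, as Pearson correlations of log2 CPM with no test. *Atp2a2* was most like *Nudt7* (0.99), the alpha myosin gene *Myh6* (0.98) and *Zfp664* (0.98), and *Casq2* was most like *Pfkfb1* (0.99), *Dach2* (0.98) and *Car8* (0.97). *Pln* was most like *Sypl*, *Cpeb2* and *Gng12* (0.96 to 0.98), *Sln* most like *Gm6252*, *Zfp799* and *Pfdn5* (0.96 to 0.97) and *Pvalb* most like *Fam174a*, *Nop56* and *Tmco1* (0.96 to 0.98). Within the 10, *Atp2a1* ran with *Casq1* (0.94), *Srl* (0.93) and *Orai1* (0.92). With so few libraries that share a genotype effect and a fibre type difference, such values describe these libraries only.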

How the data were processed

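For each library the authors deposited the unnormalized counts of reads per gene, with genes given by Entrez identifier and symbol. By the study's methods and the submitters' notes, stranded total RNA libraries depleted of ribosomal RNA were sequenced in pools, and after quality control with FastQC the reads were aligned to GRCm38 and assigned to genes by Rsubread. How reads on overlapping genes were counted is not given in the sources used here. The main test was the robust quasi-likelihood test of edgeR 4.0.16 in R 4.3.3 after TMM and filterByExpr, with genotype as the only term and Benjamini-Hochberg adjustment of p over 16483 genes (threshold 0.05). DESeq2 1.42.0, limma voom 3.58.1, other normalizations, filters and covariates, and leaving out each library served as alternatives. CPM used TMM library sizes, and the slow fibre score and the correlations a prior count of 2. The fast fibre mean and the levels relative to it used no prior count. Exon lengths were unions of GENCODE exons, reading frames came from GENCODE transcripts, and gene coordinates and promoters from RefSeq, all on GRCm38. The scripts were tested on simulated data. The study's text gives 3 mice per group for the RNA-seq comparison, and each library was taken as 1 mouse. The members and lists were chosen with earlier results of these data known. Named were the 10 genes, *Dnm1l*, pathway genes with an unadjusted p under 0.05 or the highest mean CPM of their list, 10 fibre type genes and the 3 genes most like each of 5 members. A gene that this rule would name is not reported here. Markers of other tissues and the muscle marker *Ttn* were named after their values were seen.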

Additional observations from a re-analysis of the deposited data

How the results depend on the processing

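The 3 libraries per group limit the precision to the intervals given, and *Sln* had single-digit counts in 3 libraries. In each of the 16 alternatives 0 of the 10 genes were called (*Sln* could not be called with DESeq2 or with at least 10 counts in every library), and *Atp2a1*, *Casq1*, *Srl*, *Stim1* and *Orai1* kept a negative estimate. The count of 4 lower at an unadjusted p under 0.05 was 2 with upper quartile normalization, with at least 10 counts in every library and without ribosomal RNA genes, and ran from 0 to 4 when 1 library was left out. It was 5 with limma voom, and 3 with RLE normalization and with the slow fibre score or the ribosomal RNA share as a covariate. With DESeq2, 3 pathway genes and 1 fibre type gene (*Myh4*) were called, and *Dnm1l* was called at -0.93. Across settings, the median log2 fold change of the tested genes moved by at most 0.096, when no filter was used. Estimates with the slow fibre score in the model turned sign for *Atp2a2* (-0.037), *Sln* (-0.087) and *Casq2* (-0.051). *Pvalb* turned sign when the ribosomal share was a covariate (-0.015) and after the length and GC correction, chosen after seeing the data (-0.11). Without 1 library, fold changes ran from -0.046 to 0.74 for *Pln*, from -0.35 to 1.23 for *Casq2*, from -0.17 to 0.19 for *Pvalb*, from 0.40 to 2.95 for *Sln*, from 0.18 to 1.18 for *Atp2a2* and from -0.42 to -0.22 for *Orai1*, the last without miDrp1KO E, and within 1.5 times the main estimate for the other 4. The differences in ratio ran from -0.15 to 0.11 for *Stim1* to *Orai1*, from -1.96 to -0.61 for *Atp2a1* to *Atp2a2* and from -2.0 to -0.74 for *Casq1* to *Casq2*. For the inhibitors to the pumps they ran from 0.80, without control D, to 1.38, without control B. The exact permutation p of that ratio was 0.2 without control D or without miDrp1KO A. Of the slopes on the slow fibre score, that of *Stim1* turned positive with upper quartile normalization (0.0079) and with at least 10 counts (0.0022). Without 1 library, 1 to 3 of the 10 slopes were called, and slopes ran from -0.16 to 1.36 for *Sln*, from 0.10 to 0.76 for *Casq2*, from -0.15 to -0.052 for *Atp2a1*, from -0.16 to -0.033 for *Casq1*, from -0.27 to -0.077 for *Pvalb*, from -0.48 to 0.019 for *Pln*, from -0.14 to 0.026 for *Srl*, from -0.084 to 0.086 for *Stim1* and from -0.071 to 0.0064 for *Orai1*. The cause of these shifts was not tested. No paired analysis was run, because the sources used here name no pairing of mice between the groups.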
